A study of Homo sapiens with 6 samples.

Results

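Tetraspanins are small membrane proteins that cross the membrane several times and gather integrins, growth factor receptors and proteases into shared patches of the cell surface. They are known in cancer cells for their part in adhesion and migration and as marker proteins of exosomes, the small vesicles released from late endosomes. CD82, also called KAI1, is known as a suppressor of metastasis that is often low in advanced tumours. The genes described here were 10 of the 28058 in the table, taken by symbol: CD82, CD9, CD63, CD81, CD151, TSPAN3, TSPAN4, TSPAN14, TSPAN15 and TSPAN31. The set was selected on RPKM values of this table: the contrast between the groups, and the large CD82 difference in it, were already known when the family members were listed. For these 10 genes that contrast is therefore a description, printed without a p-value.

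The cells were MDA-MB-231, an established human line from a triple-negative breast adenocarcinoma, kept in culture at 21% oxygen. Cells with an shRNA against HSF1 (shHSF1, 3 libraries), the transcription factor of the heat shock response, were compared with cells carrying a control shRNA (shCTL, 3 libraries). All 6 data columns carry the letters TGL and cl in their names, with cl before the replicate number, and what these letters stand for is not stated. The labels do not name the hairpin sequences, the number of hairpins or clones, or whether replicates came from separate cultures. The p-values below therefore take in only the library-to-library spread, part of which may be technical. Levels are RPKM, reads scaled to gene length and to the assigned reads of the library, so that levels of different genes can be compared.

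Reads assigned to genes ranged from 33988307 to 42615678 in shHSF1 and from 36737836 to 70449758 in shCTL. HSF1 itself stood at 5.01, 4.70 and 3.84 RPKM in shHSF1 and at 61.2, 53.3 and 47.9 RPKM in shCTL (log2 fold change -3.44, limma adjusted p = 3.78e-06; exact two-sided permutation p = 0.1, the smallest that 3 against 3 libraries allow). The mesenchymal marker VIM and the keratins KRT8 and KRT18 were high in all 6 libraries, while the epithelial cadherin CDH1 was at most 0.0422 RPKM. Among leukocyte markers, the leukocyte tetraspanins CD37 and CD53 had no reads, PTPRC and CD3E were at most 0.0778 RPKM, and CD14 reached 1.56 RPKM. The filter on low values (0.5 RPKM or more in no fewer than 3 libraries) left 12433 genes, of which 33.8% passed limma at an adjusted p under 0.05 (17.7% higher in shHSF1, 16.1% lower), so a call was common. Log2 fold changes are those of log2(RPKM + 0.5), shHSF1 over shCTL, and understate the change of low genes. Folds are ratios of mean RPKM.

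CD82 stood apart from the other 9 genes in the size of its difference. Its level was 93.3, 71.7 and 56.9 RPKM in shHSF1 1, 2 and 3 and 8.60, 10.5 and 8.37 RPKM in shCTL 1, 2 and 3. The lowest shHSF1 library was several times above the highest shCTL library. The means were 73.9 ± 18.3 RPKM in shHSF1 and 9.17 ± 1.20 RPKM in shCTL (SD, n = 3 each), from 14682 and 2241 reads, an 8.06-fold difference. The log2 fold change was 2.92 (SE 0.175) and lay between 2.74 and 3.10 over the 14 other settings tried, leaving out each library among them. In bulk RNA, more transcript per cell and more cells that carry the transcript cannot be told apart. CD82 (chromosome 11, 44565591 to 44619765, plus strand, hg38) was among neighbours that moved little: their median log2 fold change, over the 40 nearest tested genes, was 0.09. TSPAN18, the next tetraspanin gene on the chromosome, 144660 bases downstream of CD82, had 1 read in shHSF1 and 0 in shCTL.

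**Figure D1:**
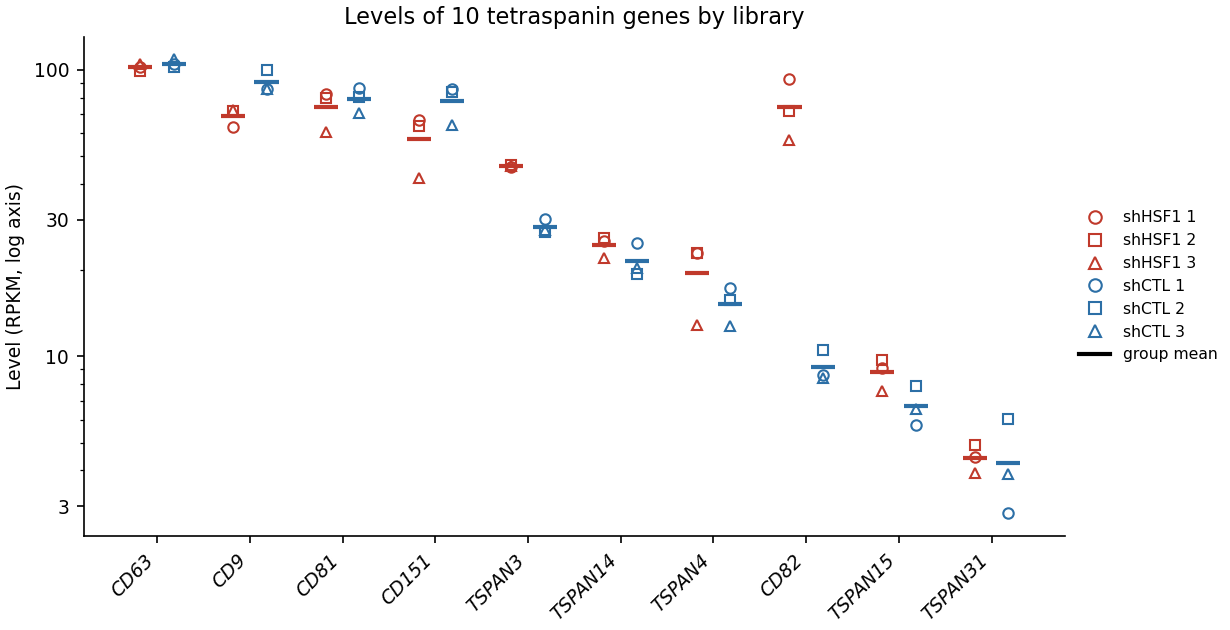
Level of each of the 10 genes in RPKM on a log axis, with shHSF1 libraries left of shCTL libraries, 1 symbol per library and a bar at the group mean. CD82 lies at 56.9 to 93.3 RPKM in shHSF1 and at 8.37 to 10.5 RPKM in shCTL, TSPAN3 and CD9 are also apart between the groups, and the ranges of the other 7 genes overlap.

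The place of CD82 among the 10 genes changed accordingly. By mean level it was the third of the 10 genes in shHSF1, behind CD63 and CD81, and the eighth in shCTL, between TSPAN4 and TSPAN15. Tetraspanins outside the 10 also had shCTL means above CD82, namely TSPAN5 (24.5 RPKM), TSPAN17 (21.1), TSPAN9 (16.4) and TSPAN6 (12.7). None outside the 10 had a mean above CD82 in shHSF1. In shHSF1 the ranges of CD81, CD82, CD9, CD151 and TSPAN3 overlapped from each gene to the next, so their order there is not fixed. CD63 lay above the range of the next gene in both groups. CD82 made up 15.5%, 12.3% and 11.3% of the summed RPKM of all 33 human tetraspanin genes in shHSF1, against 1.58%, 1.93% and 1.69% in shCTL. The ratio of CD82 to CD9 was 1.48, 1.00 and 0.788 in shHSF1, against a mean of 0.101 ± 0.00397 in shCTL (SD, n = 3).

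The summed level itself differed less than its make-up. It was 600, 582 and 501 RPKM in shHSF1 and 545, 547 and 496 RPKM in shCTL, and the 10 genes held 85.6% of it in shHSF1 and 82.8% in shCTL. Without CD82 the other 9 genes summed to 406 ± 29.2 RPKM in shHSF1 and 429 ± 24.5 RPKM in shCTL. These sums overlapped between the groups.

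**Figure D2:**
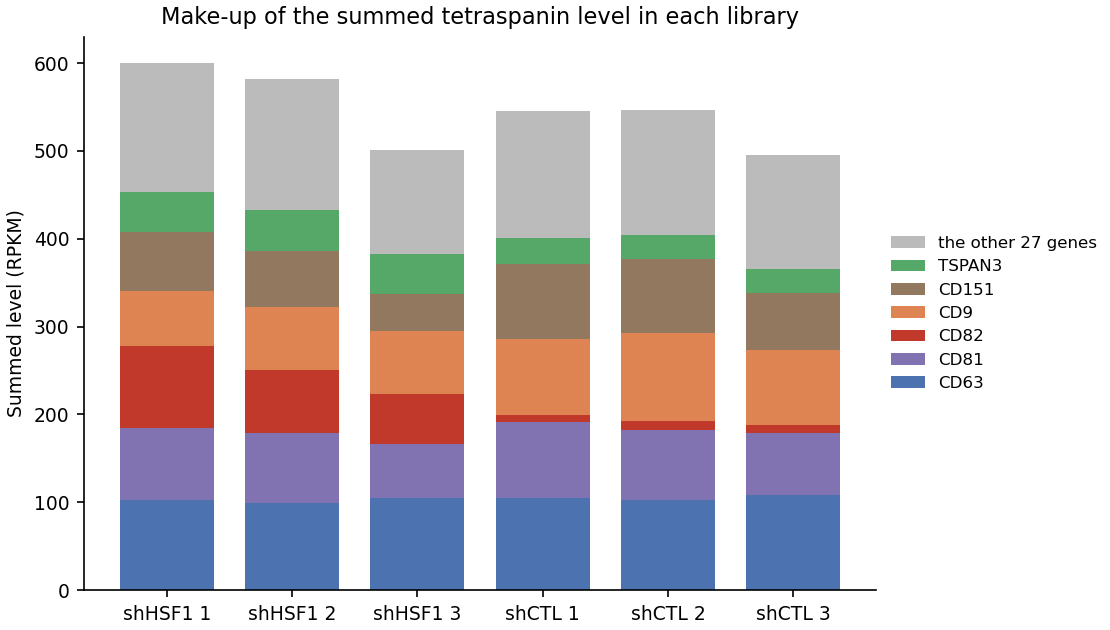
Stacked bars give the summed RPKM of the 33 tetraspanin genes in each library, divided into CD63, CD81, CD82, CD9, CD151, TSPAN3 and all others. The CD82 block takes 11.3% to 15.5% of the bar in the shHSF1 libraries and 1.58% to 1.93% in the shCTL libraries.

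Promoter sequence, here 250 bases before to 50 bases after the gene start from RefSeq on GRCh38.p14, was at hand for 7 of the 10 genes and not for CD81, CD151 and TSPAN3. The promoters of CD82, CD63 and CD9 are shown because these genes stood much higher, close and lower in shHSF1. Each is written 5′ to 3′ on the strand of its gene, with capitals on each GC box (GGGCGG on either strand). The CD82 window is at chr11:44565413-44565712 on the plus strand and the CD63 window at chr12:55728960-55729259 on the minus strand. The CD9 window is at chr12:6199696-6199995 on the plus strand. The gene spans used for the levels begin elsewhere, at 44565591 for CD82, 6199707 for CD9 and, on the minus strand, 55729673 for CD63. The CD82 window straddles the start of its span. The CD63 window lies wholly inside its span and the CD9 window almost wholly, so neither is sequence upstream of the span.
CD82: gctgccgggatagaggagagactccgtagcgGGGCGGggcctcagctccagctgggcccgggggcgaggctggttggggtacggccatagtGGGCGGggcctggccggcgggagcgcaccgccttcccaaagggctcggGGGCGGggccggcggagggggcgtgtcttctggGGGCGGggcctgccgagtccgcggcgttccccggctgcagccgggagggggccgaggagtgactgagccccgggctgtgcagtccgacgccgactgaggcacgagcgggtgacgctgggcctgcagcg
CD63: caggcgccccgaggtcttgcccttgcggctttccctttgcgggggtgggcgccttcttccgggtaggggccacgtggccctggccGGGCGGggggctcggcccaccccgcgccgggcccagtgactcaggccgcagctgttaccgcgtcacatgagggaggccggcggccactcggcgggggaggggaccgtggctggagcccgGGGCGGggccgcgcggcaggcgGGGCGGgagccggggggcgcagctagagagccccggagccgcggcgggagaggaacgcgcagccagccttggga
CD9: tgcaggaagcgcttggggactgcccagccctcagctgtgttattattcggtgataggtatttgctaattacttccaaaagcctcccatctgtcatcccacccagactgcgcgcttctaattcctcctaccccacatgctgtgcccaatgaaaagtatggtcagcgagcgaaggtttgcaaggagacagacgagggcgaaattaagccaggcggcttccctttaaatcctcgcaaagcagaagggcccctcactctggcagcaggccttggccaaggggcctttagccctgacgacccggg
The CD82 window held 4 GC boxes and was 76.7% G and C. The CD63 window held 3 and was 78.3% G and C, and the CD9 window held none and was 55.3% G and C. A GC box was in 5 of the 7 windows, in 8 of 18 windows of other tetraspanins and in 15786 of 35116 promoters of the same length.

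Heat shock elements, the repeats of GAA and its complement that HSF1 binds, were searched on both strands in the same windows. The form of 3 units, GAANNTTCNNGAA, was in 0 of 7 windows and in 0.490% of all promoters. The forms of 2 units, GAANNTTC and TTCNNGAA, which also lie within the form of 3, were each in 0 of 7 windows and in 6.77% and 7.74% of all promoters. These letters are thus not in these windows; the rest of each locus was not searched.

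The classical surface and exosome tetraspanins CD9, CD81, CD151 and CD63 were the most abundant in shCTL, and the means of CD9 and CD151 were lower in shHSF1. CD9, which binds integrins and the heparin-binding growth factor HBEGF, was at 63.0, 71.7 and 72.2 RPKM in shHSF1 1, 2 and 3 and at 86.0, 100.3 and 86.0 RPKM in shCTL 1, 2 and 3. Its groups did not overlap, and the mean was 69.0 ± 5.14 RPKM in shHSF1 against 90.8 ± 8.26 RPKM in shCTL (SD, n = 3 each, log2 fold change -0.39, SE 0.0914). CD9 is on chromosome 12 (6199707 to 6238271), where the 40 neighbours had a median log2 fold change near 0.

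CD151, the tetraspanin most firmly bound to laminin-binding integrins, was at 66.9, 63.8 and 42.0 RPKM in shHSF1 and at 85.6, 83.5 and 64.2 RPKM in shCTL. Libraries of both groups spread widely and their ranges overlapped. Within each same-numbered pair of libraries shHSF1 was lower, as it was for CD9, CD63, CD81 and 31.2% of all tested genes. The pair differences of CD151 were -0.35, -0.38 and -0.61 in log2(RPKM + 0.5). Its mean log2 fold change was -0.45 (SE 0.188, and -0.24 without shHSF1 3).

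CD81 and CD63 differed little. CD81, an entry receptor of hepatitis C virus, was at 82.2, 79.5 and 60.9 RPKM in shHSF1 and at 86.3, 80.2 and 70.5 RPKM in shCTL. Its log2 fold change of -0.10 (SE 0.129) was smaller than its error, and ranged from -0.20 to 0.04 over the other settings, above 0 only without shHSF1 3. CD63, a tetraspanin of late endosomes and exosomes, was at 102, 99.1 and 105 RPKM in shHSF1 and at 105, 102 and 109 RPKM in shCTL. It was the highest of the 10 genes in both groups, with a log2 fold change of -0.04 (SE 0.0650), which was 0.01 when centred on its neighbours. These are transcript levels, and protein at the cell surface was not measured.

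TSPAN3, a broadly expressed tetraspanin of the plasma membrane and endosomes, had the second largest difference. It was at 46.0, 46.6 and 46.0 RPKM in shHSF1 and at 30.1, 27.3 and 27.5 RPKM in shCTL, and the groups stood clear of each other. The means were 46.2 ± 0.323 RPKM in shHSF1 and 28.3 ± 1.56 RPKM in shCTL (SD, n = 3 each), a 1.63-fold difference. The gene lies on chromosome 15 (77044018 to 77071228), where the median over the 40 nearest tested genes was 0.63 on the log2 scale, close to the 0.70 (SE 0.0685) of TSPAN3. Centred on these neighbours, its log2 fold change was 0.07 (SE 0.0694). The part of the neighbourhood in the TSPAN3 difference was not tested.

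TSPAN14 and TSPAN15 belong to the TspanC8 group, which carries the protease ADAM10 to the cell surface and directs it to its substrates. TSPAN15 was at 9.08, 9.72 and 7.58 RPKM in shHSF1 and at 5.75, 7.88 and 6.55 RPKM in shCTL (log2 fold change 0.37, SE 0.137). It was higher in each same-numbered pair, as were TSPAN14 and 38.7% of all tested genes, although the ranges overlapped. TSPAN14 was at 25.4, 25.8 and 22.1 RPKM in shHSF1 and at 25.0, 19.3 and 20.4 RPKM in shCTL (log2 fold change 0.18, SE 0.113), with ranges that overlapped as well. Both genes lie on chromosome 10, where neighbours of TSPAN15 had a median log2 fold change of 0.16 and those of TSPAN14 one of 0.09.

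TSPAN4, a tetraspanin known from migrasomes, the vesicles left behind on retraction fibres, was at 23.0, 23.0 and 12.8 RPKM in shHSF1 and at 17.3, 15.7 and 12.7 RPKM in shCTL. The difference was nearly absent in the third pair, and the log2 fold change of 0.32 (SE 0.225) rested on the first and second (0.40, 0.53 and 0.01 in the pairs; 0.59 without shHSF1 3). TSPAN4 begins 3988 bases after the end of CD151 on the same strand of chromosome 11. The neighbours thus had mean differences of opposite sign. TSPAN31, a tetraspanin first found amplified in sarcomas, was the lowest of the 10 genes, at 4.46, 4.89 and 3.92 RPKM in shHSF1 and 2.83, 6.05 and 3.87 RPKM in shCTL. Its pairs did not share a direction (log2 fold change 0.10, SE 0.229), and leaving out single libraries gave -0.13 to 0.36. The span of TSPAN31 shares 517 bases with that of the cell cycle kinase gene CDK4 on the opposite strand. Without a stated strand setting, reads of the shared part cannot be told apart between them. CDK4 was at 73.3 ± 17.8 RPKM in shHSF1 and 60.6 ± 7.57 RPKM in shCTL (SD, n = 3 each, limma adjusted p = 0.342; 0.0157 without shHSF1 3).

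**Figure D3:**
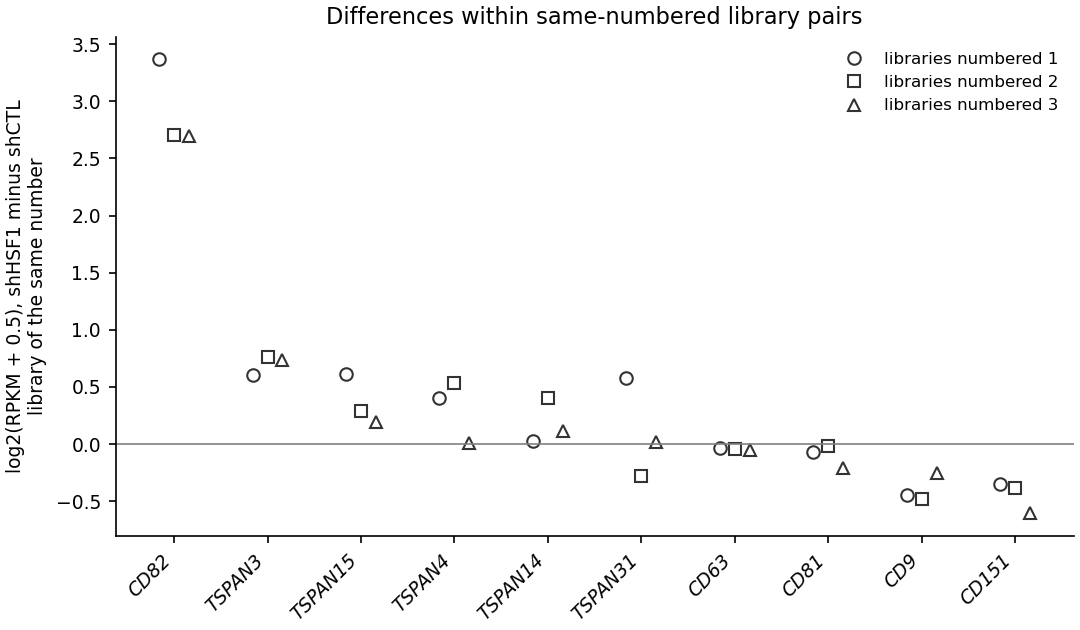
Difference in log2(RPKM + 0.5) between the shHSF1 and the shCTL library of the same number, for each of the 10 genes, with 1 symbol per pair. CD82 lies between 2.69 and 3.37 in all 3 pairs. CD151, CD9, CD81 and CD63 are below 0 in all 3, the last of these only slightly, and TSPAN31 is on both sides of 0.

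The libraries numbered 3 were low for several of these genes in both groups. Compared with the mean of the libraries 1 and 2 of the same group, library 3 of shHSF1 was different by -0.82 for TSPAN4, -0.63 for CD151, -0.52 for CD82 and -0.41 for CD81 on the log2 scale. Library 3 of shCTL was different by -0.36 for TSPAN4, -0.39 for CD151, -0.18 for CD82 and -0.24 for CD81. All 4 genes are rich in G and C, from 59.0% for CD82 to 64.9% for CD81 in the longest annotated transcript. Library 3 of shHSF1 was also lower for TSPAN15 (-0.29, 57.4% G and C), TSPAN31 (-0.23, 48.2%) and TSPAN14 (-0.21, 50.5%). It differed by 0.10 for CD9 (51.4%), 0.06 for CD63 (54.7%) and -0.01 for TSPAN3 (48.0%). Among all tested genes with a GC content, the 3022 richest in G and C (55.6% or more) had a median log2 difference of -0.28 in shHSF1 3 and -0.09 in shCTL 3. The 3022 poorest (41.6% or less) had medians of 0.14 in shHSF1 3 and 0.07 in shCTL 3. The part of GC content in the spread of CD82 was not tested. The lowest CD82 level of the shHSF1 group was the one in library 3.

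Of the 10 genes, all of which passed the filter on low values, 2 were called higher (CD82 and TSPAN3) and 1 lower (CD9) by limma, beside 33.8% of all tested genes. With the replicate number as a block 4 were called higher and 2 lower, the added ones being TSPAN4 and TSPAN15 higher and CD151 lower, beside 48.3% of all genes (26.2% higher, 22.1% lower). Group values did not overlap for 3 of the 10, beside 47.4% of all tested genes (25.6% with shHSF1 higher, 21.8% with shHSF1 lower). In same-numbered pairs 5 genes were higher in all 3 pairs and 4 lower, beside 70.0% of all genes with 3 pairs in 1 direction (38.7% higher, 31.2% lower). The median log2 fold change of the 10 was 0.14, and that of all tested genes was 0.04. Since the contrast was known when the genes were listed, nothing is read from these counts.

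The family has 23 further human genes, and 10 of them passed the filter. Of these, 2 rose and 6 fell in shHSF1, and TSPAN2 and TSPAN6 passed in neither direction, beside 17.7% of all tested genes higher and 16.1% lower. TSPAN7, 1 of the 6, reached the filter on low values through the shCTL libraries alone, so it had to differ. The median over the 10 was -0.50 on the log2 scale, beside 0.04 for all tested genes. The members were taken out of the family with the contrast known, so nothing is read from these counts. TSPAN9, a tetraspanin of platelets, rose 1.48-fold, with 24.2 ± 3.22 RPKM in shHSF1 and 16.4 ± 1.56 RPKM in shCTL (SD, n = 3 each, limma adjusted p = 0.00929). TSPAN12, known for its part in Norrin signalling of retinal vessels, was at 4.62 ± 0.0876 RPKM in shHSF1 and 3.19 ± 0.301 RPKM in shCTL (SD, n = 3 each, limma adjusted p = 0.00855). Both rose while their chromosomal neighbours had medians of 0.05.

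TSPAN7 and TSPAN8 had the largest falls. TSPAN7, an X-linked gene known from intellectual disability, had 0 reads in each shHSF1 library and 0.739, 1.33 and 1.09 RPKM in shCTL, from 260 reads. Against a floor of 3 reads over the shHSF1 group this was at least 68.3-fold lower. TSPAN8, a tetraspanin of carcinoma cells and their exosomes, was at 2.12, 2.01 and 1.72 RPKM in shHSF1 and 5.00, 6.07 and 3.95 RPKM in shCTL, 2.57-fold lower (limma adjusted p = 0.00119). TSPAN13 was at 1.55 ± 0.247 RPKM in shHSF1 and 2.45 ± 0.280 RPKM in shCTL (SD, n = 3 each, limma adjusted p = 0.0176), and TSPAN1 at 1.91 ± 0.595 RPKM in shHSF1 and 3.22 ± 0.569 RPKM in shCTL (SD, n = 3 each, limma adjusted p = 0.0445). The call of TSPAN1 was lost with no filter on low values (limma adjusted p = 0.113) and without shHSF1 2, shHSF1 3, shCTL 2 or shCTL 3, with a highest limma adjusted p of 0.133, and TSPAN13 lost it without shHSF1 1, shCTL 2 or shCTL 3 (highest 0.0695).

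TSPAN5 and TSPAN17, the other TspanC8 genes that were tested, fell as well. TSPAN5 was at 17.3, 17.9 and 16.8 RPKM in shHSF1 and 25.1, 25.7 and 22.6 RPKM in shCTL (log2 fold change -0.48, limma adjusted p = 0.00263). TSPAN17 was at 15.4, 15.7 and 10.9 RPKM in shHSF1 and 21.5, 21.0 and 20.9 RPKM in shCTL (log2 fold change -0.59, limma adjusted p = 0.0126). Their chromosomal neighbours moved in the same direction, with medians of -0.46 around TSPAN5 on chromosome 4 and -0.28 around TSPAN17 on chromosome 5. Centred on the neighbours, neither was called (limma adjusted p = 0.831 for TSPAN5 and 0.132 for TSPAN17). The remaining TspanC8 genes TSPAN10 and TSPAN33 did not reach the filter. Of the 13 untested tetraspanins, 5 had no reads in any library, among them CD37 and CD53, and no value was above 0.574 RPKM.

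**Figure D4:**
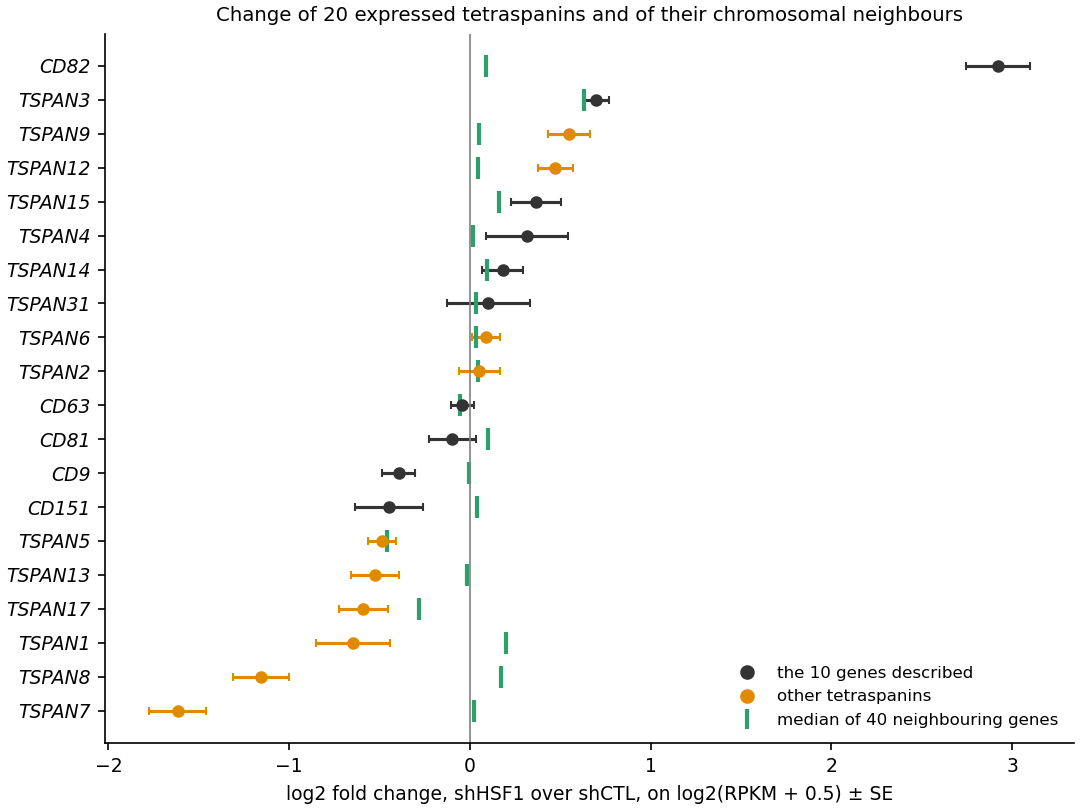
Log2 fold change, shHSF1 over shCTL, with its SE for the 20 tetraspanins that passed the filter (dark, the 10 genes described; orange, the others), and a green tick at the median of the 40 nearest tested genes. For TSPAN3 and TSPAN5 the tick lies beside the point (0.63 against 0.70 and -0.46 against -0.48), while for CD82 it lies at 0.09.

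ADAM10, which the TspanC8 tetraspanins carry, was at 49.7 ± 3.39 RPKM in shHSF1 and 47.9 ± 4.91 RPKM in shCTL (SD, n = 3 each, limma adjusted p = 0.693; its small difference changed sign without shCTL 1 and centred on neighbours), and was named after its values were seen. Of 9 tested genes on a list of ADAM10 and its substrates, 3 rose, 1 fell and 5 passed in neither direction, beside 33.8% of all tested genes called. Their median log2 fold change was 0.06. This list was chosen with earlier results of these data known, so nothing is read from its counts. EPHB2, a receptor of ephrins, was at 9.18, 7.91 and 7.10 RPKM in shHSF1 and 3.58, 2.51 and 2.54 RPKM in shCTL (log2 fold change 1.35, limma adjusted p = 0.000539). CD44, the hyaluronan receptor and also on the list of partners below, was 1.48-fold higher (limma adjusted p = 0.00568), and PRNP, the prion protein gene, was 1.33-fold higher (limma adjusted p = 0.0302). The PRNP call was lost when shHSF1 2, shHSF1 3, shCTL 1 or shCTL 3 was left out, and with 2 other settings (limma adjusted p up to 0.0754). IL6R, the interleukin-6 receptor, was at 0.329, 0.291 and 0.233 RPKM in shHSF1 and 1.14, 0.986 and 1.09 RPKM in shCTL. It was the 1 gene of the list called lower, and it reached the filter on low values through the shCTL libraries alone, so it had to differ.

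The genes of proteins that bind tetraspanins moved in both directions. Of 21 tested genes on a list of such partners, 10 rose, 5 fell and 6 passed in neither direction, beside 17.7% of all tested genes higher and 16.1% lower. With the replicate block 12 rose and 6 fell, beside 26.2% of all genes higher and 22.1% lower. The 21 genes' median log2 fold change was 0.31, beside 0.04 for all tested genes. This list was chosen with earlier results of these data known, so nothing is read from its counts or median. HBEGF, the growth factor precursor that CD9 binds, was at 47.6 to 55.8 RPKM in shHSF1, against a mean of 17.4 ± 1.44 RPKM in shCTL (SD, n = 3), 2.98-fold higher (limma adjusted p = 3.35e-05). Its receptor gene EGFR moved the other way, at 49.7, 49.6 and 48.6 RPKM in shHSF1 and 77.2, 80.6 and 74.8 RPKM in shCTL (limma adjusted p = 0.000293). MET, the hepatocyte growth factor receptor that CD82 is known to restrain, fell to 26.2 ± 1.09 RPKM in shHSF1, against 44.7 ± 4.57 RPKM in shCTL (SD, n = 3 each, limma adjusted p = 0.000646).

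Immunoglobulin-like partners split. PTGFRN, a direct partner of CD9 and CD81, was at 5.28, 5.14 and 4.51 RPKM in shHSF1 and 1.62, 1.77 and 1.75 RPKM in shCTL (limma adjusted p = 0.000104). IGSF3 was 2.20-fold higher (limma adjusted p = 0.000675) and IGSF8, which binds CD9, CD81 and CD82, 1.56-fold lower (limma adjusted p = 0.0121), both named after their values were seen. ICAM1, an adhesion molecule that CD9 accompanies on the cell surface, was 9.48-fold higher at 36.8 ± 5.83 RPKM in shHSF1 and 3.88 ± 2.08 RPKM in shCTL (SD, n = 3 each, limma adjusted p = 0.000294). CLDN1, the tight junction protein that pairs with CD81, was 3.33-fold higher (limma adjusted p = 0.000934).

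Among the integrins, the chains did not move together. ITGB1, the shared beta 1 chain, was at 508, 468 and 589 RPKM in shHSF1 and 315, 347 and 358 RPKM in shCTL (limma adjusted p = 0.00359, named after its values were seen). ITGA6, an alpha chain of laminin receptors that CD151 binds, was at 143, 130 and 156 RPKM in shHSF1 and 200, 233 and 231 RPKM in shCTL (log2 fold change -0.63, limma adjusted p = 0.00219). Neighbours of ITGA6 on chromosome 2 had a median of -0.50, and its call was lost when it was centred on them (limma adjusted p = 0.360). ITGA7, another laminin receptor chain, was at 0.0372, 0.0703 and 0.0600 RPKM in shHSF1 and 1.42, 1.99 and 0.894 RPKM in shCTL. It reached the filter on low values through the shCTL libraries alone, so its place among the 5 genes that fell was set by that filter.

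**Figure D5:**
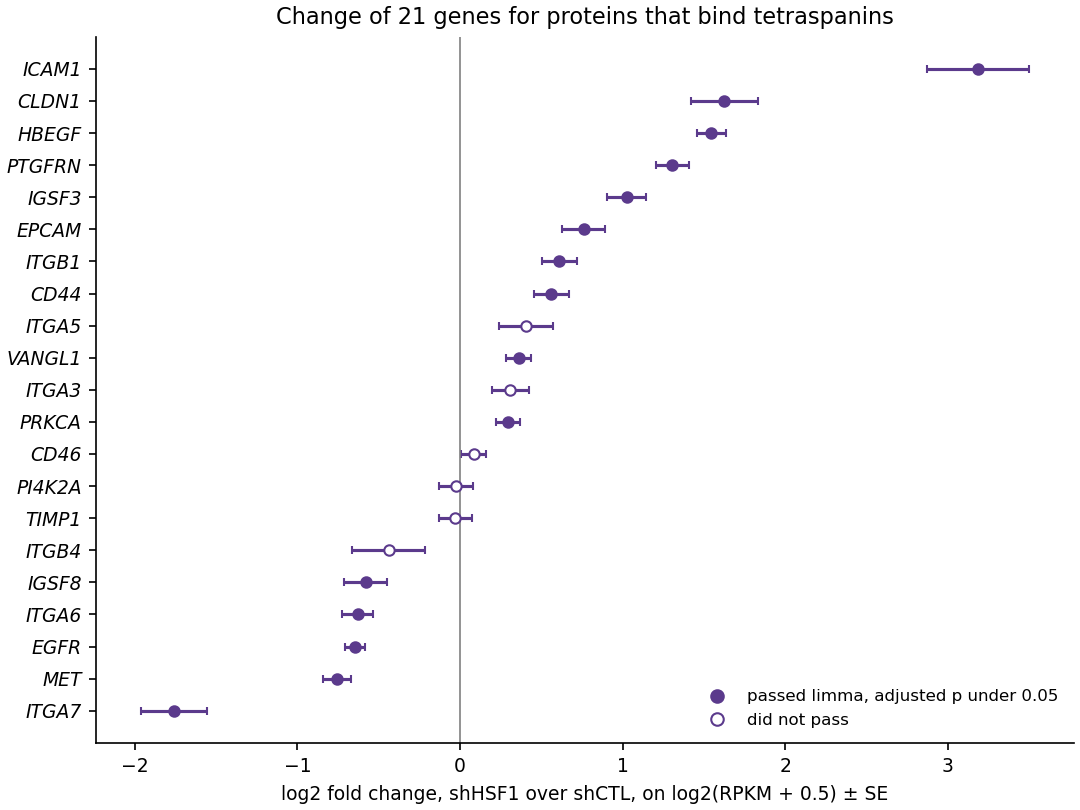
Log2 fold change, shHSF1 over shCTL, with its SE for the 21 tested genes on the list of tetraspanin partners; filled points passed limma at an adjusted p under 0.05. HBEGF, PTGFRN, CLDN1, ICAM1 and IGSF3 lie above 1. ITGA7 is the lowest at -1.76, and MET, EGFR, ITGA6 and IGSF8 lie between -0.76 and -0.58.

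CD63, CD81 and CD9 are the usual markers of exosomes, and the genes of exosome formation were described as a list of their own. That list too was chosen with earlier results of these data known, so nothing is read from its counts. Of 16 tested genes on it, 2 rose and 2 fell (4 and 2 with the replicate block), beside 33.8% of all tested genes called (48.3% with the block), with a median log2 fold change of 0.09. TSG101, an early ESCRT subunit, was at 86.2, 83.0 and 86.1 RPKM in shHSF1 and 68.8, 71.3 and 71.3 RPKM in shCTL (limma adjusted p = 0.0125; 0.0545 without shCTL 3). RAB11A was 1.20-fold higher (limma adjusted p = 0.0386), but it lies on chromosome 15 among neighbours with a median log2 fold change of 0.64, and centred on them its log2 fold change was -0.39. The RAB11A call was lost on leaving out any single library other than shCTL 2 (limma adjusted p up to 0.139). RAB27B, a GTPase of vesicle release, was at 12.5, 13.4 and 16.1 RPKM in shHSF1 and 17.2, 22.6 and 24.3 RPKM in shCTL (limma adjusted p = 0.0172), and its call was lost without shHSF1 1, shHSF1 2, shCTL 2 or shCTL 3 (up to 0.0634). PLD2, a phospholipase, was 1.73-fold lower (limma adjusted p = 0.00744).

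The genes with the profile nearest to that of CD82 over the 6 libraries were TGFBI, SAA2, B3GNT7, EMC10 and DTX3, by Euclidean distance between centred log2(RPKM + 0.5) values. Genes with LOC, LINC, microRNA, small nucleolar RNA, antisense, clone or open reading frame symbols were left out before this choice. The distances ran from 0.358 for TGFBI to 0.509 for DTX3, beside a median of 3.58 over all tested genes. That median mostly reflects the size of the CD82 difference itself, as the median log2 fold change of all tested genes was 0.04. TGFBI, a secreted matrix protein, was at 16.8, 14.9 and 13.5 RPKM in shHSF1 and 1.57, 2.28 and 1.53 RPKM in shCTL. B3GNT7, a glycosyltransferase, was at 7.53, 7.75 and 5.93 RPKM in shHSF1 and 0.509, 0.924 and 0.571 RPKM in shCTL. SAA2 shares sequence with its neighbour SAA1, so its reads are uncertain. EMC10, a subunit of the membrane protein insertion complex of the endoplasmic reticulum, was at 5.99, 4.65 and 4.06 RPKM in shHSF1 and at most 0.0770 RPKM in shCTL. Each of these genes was far higher in shHSF1, which follows from choosing them by nearness to CD82, and the distance carries no test. SAA2, EMC10 and DTX3 reached the filter on low values through the shHSF1 libraries alone. Their nearness to CD82 depends on the added 0.5 RPKM. Folds of mean RPKM were 122 for SAA2, 85.5 for EMC10 and 14.9 for DTX3, against 8.06 for CD82. Those of B3GNT7 and TGFBI were 10.6 and 8.40. With a pseudocount of 0.1 the log2 fold changes were 4.52 for SAA2, 4.98 for EMC10 and 3.52 for DTX3, against 2.98 for CD82.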

How the data were processed

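RNA was extracted with Qiagen columns and sequenced after a KAPA mRNA library preparation, per the labels' protocols. The authors deposited RPKM values for 28058 genes on hg38. STAR and featureCounts are named in the submitters' processing notes. Versions, annotation and strand setting were not stated. Samples were grouped by title, and the control columns, named shScr, were taken as shCTL with replicates matched by number. RPKM times gene length (a deposited column, in kb) gave whole reads for 100% of values within 0.01, from which depth was taken. Mean chi-square per gene between libraries of a group was at least 18.5, so none was counted as a repeat.

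The 12433 genes that reached 0.5 RPKM in 3 or more libraries were tested on log2(RPKM + 0.5) with limma 3.58.1 in R 4.3.3 (group alone, mean-variance trend, two-sided, Benjamini-Hochberg over all tested genes, threshold 0.05). Libraries of equal replicate number deviated together from their group means (correlations 0.468, 0.307 and 0.451, against -0.370 to -0.0200 for unequal numbers). Deviations cancel within a group, so the values for unequal numbers are partly forced to be negative. Same-numbered libraries were therefore also compared as pairs. No label says what a number marks, so the main fit left the pairing out, and the fit with this replicate block was an alternative. The main fit was tested on simulated reads with known changes. These were drawn independently with the same spread setting for all genes, without shared replicate deviations or a GC shift. The simulation therefore does not cover those features of the data. Other alternatives were pseudocounts of 0.1 and 1, other filters, median scaling, quantile normalization, centring on 40 neighbouring genes, and leaving out each library. GC content came from GENCODE (97.2% of tested symbols).

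The members and gene lists were chosen with earlier results of these data known. Named are the 10 genes, HSF1, every other tested tetraspanin, from each further list up to 4 called genes per direction, tested genes overlapping a member, and the 5 genes nearest to CD82; others are said to have been named after their values were seen. Counting error is the only error in floors. Figures were drawn with matplotlib 3.10.9.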

Additional observations from a re-analysis of the deposited data

How the results depend on the processing

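Of 654 values of 47 named genes over 14 alternatives, 619 kept their direction and side of the threshold (or, for the 10 tetraspanins, moved by less than 1 SD), 29 lost the call, 1 gained it, 2 moved and 3 reversed. The reversed ones were RAB11A centred on neighbours (-0.39), and ADAM10 centred on neighbours (-0.11) and without shCTL 1, on the log2 scale; leaving out each library gave ADAM10 values from -0.026 to 0.12. The values that moved were TSPAN3 (0.07) and CD63 (0.01), both centred on neighbours. Among the 10 tetraspanins a change of sign was counted as reversed only for a gene called in the main fit. The signs of CD63 centred on neighbours, CD81 without shHSF1 3 (0.04) and TSPAN31 without shCTL 1 (-0.13) changed outside that count. Each alternative kept the direction of CD82, CD9, CD151, TSPAN3, TSPAN4, TSPAN14 and TSPAN15.

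With the replicate number as a block, 4 of the 10 genes were called higher and 2 lower, in place of 2 and 1, and 4 exosome genes were called higher in place of 2; over all genes the calls numbered 3257 higher and 2750 lower (2195 and 2006 without it). Outside the 10, the marker CD14 gained a call under the block (limma adjusted p = 0.0127, against 0.183 without it). The marker KRT19 gained a call as well (limma adjusted p = 0.00220, against 0.0770). No other gene with a value in the text changed its call. Centred on neighbours, 1 of the 10 genes and 1 exosome gene were called higher. Median scaling and quantile normalization each called 1 exosome gene higher. The voom alternative on reads recovered from RPKM is not used here, since the values are RPKM. On the ADAM10 list 3 genes were called lower with no filter and 0 with a filter of 1 RPKM, where IL6R was no longer tested. For centring, scaling, quantile normalization and the other filters, the share of all genes called is not given here. Nothing is therefore read from the counts under those settings. Leaving out 1 library each gave 1383 to 2374 genes higher over all, 2 to 4 of the 10 genes higher, 0 to 2 exosome genes higher and 1 to 2 lower; the lowest count over all was without shHSF1 2 (1404 without shCTL 3), and 4 of the 10 were called higher without shHSF1 3 and 0 exosome genes without shCTL 3. The cause was not tested.

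With 3 libraries a group, no exact permutation test of a single gene can go below 0.1. TSPAN2, near the filter, rests on 200 reads in shHSF1 and 235 in shCTL.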
